A study of Mus musculus with 6 samples.

Results

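The 8 Smad genes of the mouse (Smad1, Smad2, Smad3, Smad4, Smad5, Smad6, Smad7 and Smad9) were described here by the H3K4me1 peaks lying in and around them. H3K4me1, the monomethylated form of lysine 4 on histone H3, is found at enhancers, both those in use and those that are poised. The 8 genes were taken by name and identifier from 21755 protein-coding genes of chromosomes 1 to 19 and X in the GENCODE annotation of GRCm38 (mm10). A peak was assigned to a Smad gene when it overlapped the gene body or the 5 kb on either side. A peak up to 100 kb away was also assigned when the nearest protein-coding start site was that of the Smad gene. The genes were selected on the length and total signal of these peaks, which were already known, so those values are given as a description and without a test.

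CUT&Tag was the assay, in which a transposase tethered by an antibody cuts the DNA near the mark for sequencing. The series held 6 samples of freshly isolated primary cells from mouse whisker pads of embryonic day 12, wild type per the methods of the study and of the strain written B6/J2 in the labels. In each of 3 pads, 1 sample received antibody against H3K4me1 and 1 received IgG. The 3 H3K4me1 samples, called replicates 1, 2 and 3 after the pad number, had peak lists, whereas those with IgG were not analysed here and give no background for the values. A pad was dissociated whole, so that mesenchyme, surface ectoderm and every other cell type of the pad shared each list, and more cells with the mark and more mark per cell could not be told apart. Nothing in the labels says that the pads came from different embryos.

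Smad proteins carry signals of the TGF-beta superfamily from receptors at the cell membrane into the nucleus. The receptor-regulated Smads are phosphorylated by activated receptors, Smad1, Smad5 and Smad9 mostly below BMP receptors and Smad2 and Smad3 mostly below TGF-beta and activin receptors, and they enter the nucleus with the common mediator Smad4. The inhibitory Smads, Smad6 and Smad7, block this relay at the receptors and are themselves induced by the pathway, which makes them negative feedback genes. BMP and TGF-beta signals take part in patterning the face and in placing whisker and hair follicles.

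The lists held 16788, 12969 and 13998 peaks in replicates 1, 2 and 3, with a median length of 2981, 3682 and 3352 bp. Total signal, which adds up the pileup of fragments at every base of a peak, was not scaled to depth, and was therefore compared as a percentile within each list. Depth per library was not measured here, since read numbers are not part of the lists. The weakest peaks kept had a total signal of 14265, 24247 and 19337. As these totals are not scaled to depth, they do not show whether the lists reached down to different levels of the mark. The source name of 4 samples, H3K4me1 replicates 2 and 3 among them, is adult kidney, although their titles give whisker pad. Of 15 facial mesenchyme markers, 14, 15 and 11 carried a peak in replicates 1, 2 and 3, and of 10 surface ectoderm markers 6, 6 and 4 did. Of 12 adult kidney markers 4, 4 and 2 carried a peak, and of 8 erythroid markers 0 did in each replicate. Over all protein-coding genes the share with a peak was 24.9%, 22.6% and 19.6%. The number of kidney markers with a peak was no higher in replicates 2 and 3 than in replicate 1, and facial mesenchyme markers also had fewer in replicate 3.

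The sequences under the highest pileup are shown for 5 places at Smad6, Smad3 and Smad1. At 4 of them the 3 maxima fell within 200 bp, and Smad6 intron 3 was added because it holds the longest Smad6 peak. Places around Smad7 with maxima spanning 43, 59 and 88 bp also met this and are not printed. Each is a window of 200 bases of the GRCm38 plus strand around the middle one of the 3 maxima. Capitals mark the SMAD box CAGAC on either strand, which reads GTCTG where it lies on the minus strand.
Smad6 intron 3, chr9:63976052-63976251: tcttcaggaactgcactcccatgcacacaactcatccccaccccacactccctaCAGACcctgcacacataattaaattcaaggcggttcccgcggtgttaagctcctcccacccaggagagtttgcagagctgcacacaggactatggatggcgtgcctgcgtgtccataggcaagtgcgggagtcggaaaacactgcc
Smad6 upstream, chr9:64058363-64058562: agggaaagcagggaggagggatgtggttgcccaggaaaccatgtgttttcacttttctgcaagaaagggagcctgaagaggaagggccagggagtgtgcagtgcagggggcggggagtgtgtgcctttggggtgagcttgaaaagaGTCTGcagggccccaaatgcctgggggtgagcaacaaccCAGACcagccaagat
Smad3 intron 1, chr9:63746285-63746484: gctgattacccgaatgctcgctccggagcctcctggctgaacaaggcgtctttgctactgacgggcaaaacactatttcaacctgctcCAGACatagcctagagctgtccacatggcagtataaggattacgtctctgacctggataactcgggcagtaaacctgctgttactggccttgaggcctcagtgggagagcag
Smad3 upstream, chr9:63780206-63780405: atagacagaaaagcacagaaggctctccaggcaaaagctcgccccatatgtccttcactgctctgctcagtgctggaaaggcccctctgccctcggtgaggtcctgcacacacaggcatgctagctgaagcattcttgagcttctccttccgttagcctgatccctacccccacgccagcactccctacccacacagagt
Smad1 upstream, chr8:79497251-79497450: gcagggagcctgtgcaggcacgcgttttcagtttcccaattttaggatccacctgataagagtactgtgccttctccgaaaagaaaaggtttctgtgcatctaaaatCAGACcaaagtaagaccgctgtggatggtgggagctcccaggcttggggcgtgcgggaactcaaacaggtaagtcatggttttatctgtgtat
The 3 maxima spanned 7 bp in Smad3 intron 1, 83 bp upstream of Smad1, 143 bp upstream of Smad3, 168 bp upstream of Smad6 and 945 bp in Smad6 intron 3. Over the 28 Smad regions with a peak in all replicates, CAGAC was in 14 of 28 such windows, beside 47.4% of the 43748 windows around the maxima of all peaks. The palindrome GTCTAGAC, which does not contain CAGAC on either strand, was in 0 of the 28, beside 0.318%. The GC-rich SMAD site GGCGCC was likewise in 0 of 28, beside 1.68%. The TCF/LEF core was searched as CTTTGAA, in the version CTTTGAT, in the version CTTTGTA and in the version CTTTGTT, on both strands like the other letters, and was in 1 of 28, beside 12.6%. The median GC content was 56% in the 28 windows and 52% in those of all peaks. Its part in these shares was not tested. The windows of all peaks also count a place again in each list where it was called. Each match describes letters in these windows and no binding.

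Of the 8 Smad genes, 5, 6 and 6 had a peak in the body or its flanks in replicates 1, 2 and 3, beside 24.9%, 22.6% and 19.6% of all protein-coding genes. Smad1, Smad3, Smad5, Smad6 and Smad7 had one in all 3 replicates, as did 15.5% of all genes and 19.5% of the 5807 genes with a body between 28.4 and 111 kb, the range of the Smad genes. Smad9 and Smad2 had none in any replicate, which was so for 71.2% of all genes and 65.5% of those as long. Smad4 had a peak in replicates 2 and 3. A peak of at least 15 kb in all replicates was found at Smad3, Smad6 and Smad7, and at 89 genes in all, or 0.409%. Among genes as long as the Smad genes the share was 0.62%.

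**Figure D1:**
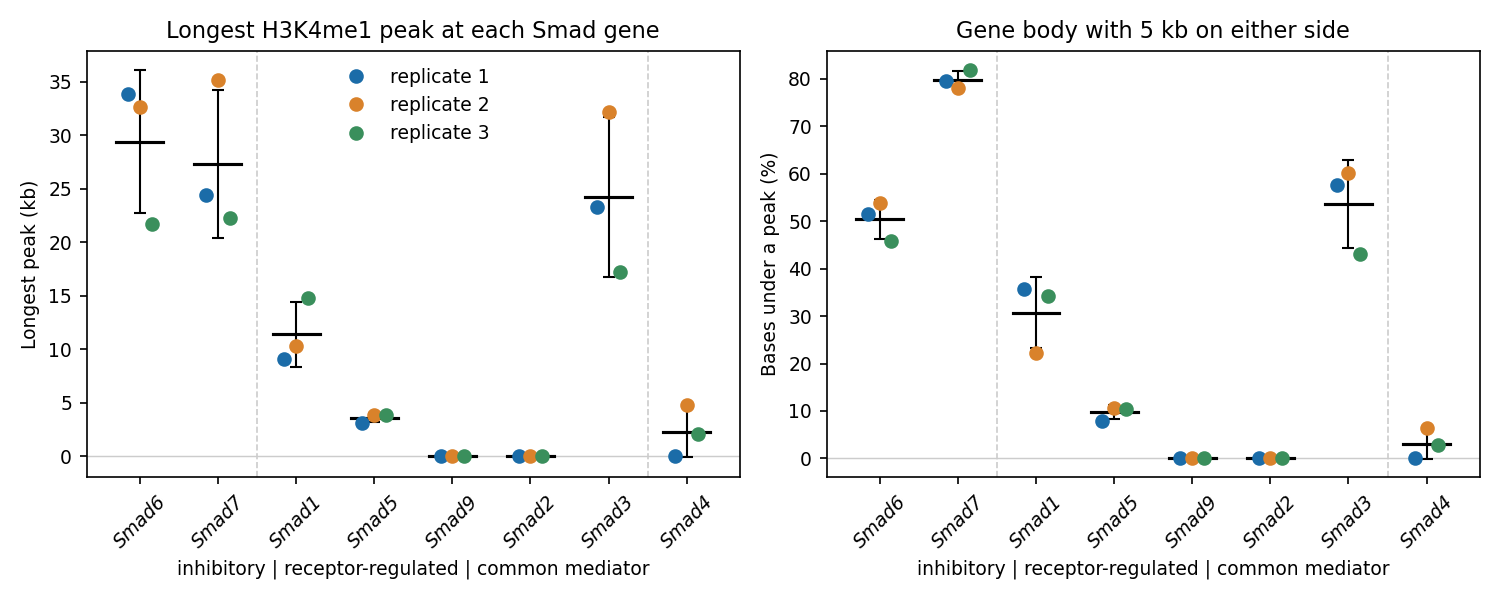
The left panel plots the length in kb of the longest H3K4me1 peak at each Smad gene and the right panel the percent of bases under a peak in the gene body with 5 kb on either side. Points are the 3 replicates, horizontal lines the mean and bars the SD, with 0 where there was no peak. Smad6, Smad7 and Smad3 lie between 17.2 and 35.2 kb, Smad1 between 9.08 and 14.8 kb, and Smad9 and Smad2 at 0.

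Smad6, the inhibitory Smad that acts mostly on BMP signals, lies on the minus strand at chr9:63953076-64022059 (ENSMUSG00000036867.7). Its longest peak measured 33.9, 32.6 and 21.7 kb in replicates 1, 2 and 3, or 29.4 ± 6.68 kb (SD, n = 3). By total signal that peak stood at percentile 99.9, 99.9 and 99.7 of its list, as the peak of rank 24, 15 and 38. Replicate 3 was the lowest by either measure. The wide peak lay in intron 3, the last of the gene, which is 53.5 kb long and makes up 77.5% of the body. In replicate 3 the same stretch was called as 2 peaks, of 21.7 and 8.28 kb, and the merged region over the 3 lists was chr9:63954937-63989339, or 34.4 kb. Peaks covered 51.6, 53.8 and 45.8% of the Smad6 body with its flanks, or 50.4 ± 4.13% (SD, n = 3). Near the start of the gene the peaks were short, and the start site itself lay 0.554, 1.82 and 4.01 kb from the nearest one.

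Smad7, the inhibitory Smad that acts on both TGF-beta and BMP signals, lies on the plus strand at chr18:75367529-75395935 (ENSMUSG00000025880.11). Its longest peak measured 24.4, 35.2 and 22.3 kb, or 27.3 ± 6.92 kb (SD, n = 3). It was the peak of rank 11, 6 and 8 by total signal. The higher length of replicate 2 went with the way the block was divided, since the stretch was 1 peak there and 2 in replicates 1 and 3, the second of them 8.89 and 10.7 kb long. The merged region, chr18:75370941-75406685, was 35.7 kb long and ran from the end of exon 2 past the end of the gene. Intron 3 is the last and longest intron of Smad7, with 62.9% of the body, and held the highest pileup of the gene in each replicate, as intron 3 did at Smad6. Peaks covered 79.5, 78.1 and 81.8% of the gene with its flanks, or 79.8 ± 1.88% (SD, n = 3). This was the highest share of the Smad genes in every replicate, and the values of Smad7 and of Smad6 did not overlap.

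**Figure D2:**
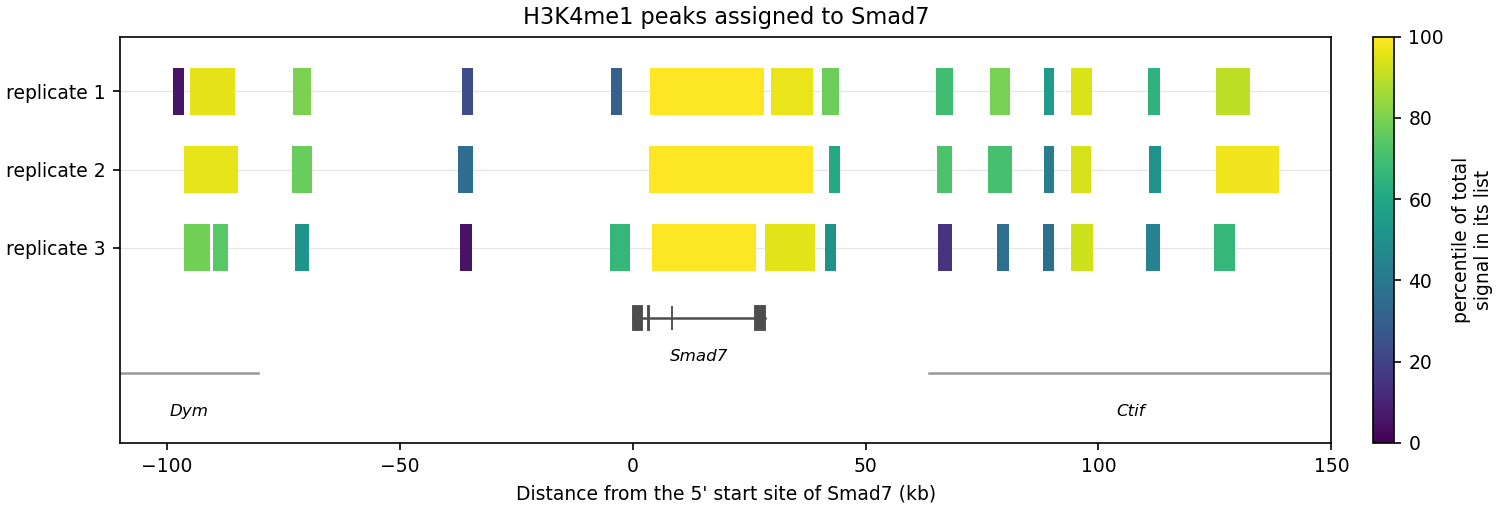
H3K4me1 peaks assigned to Smad7 in the 3 replicates, drawn as boxes against the distance in kb from its 5′ start site and coloured by the percentile of their total signal in the list. Dark bars are the exons of Smad7 and grey lines the neighbouring genes Dym and Ctif. The wide block begins 3.41 kb or more into the gene in each replicate, and 11, 10 and 11 weaker or shorter peaks lie further out on both sides.

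Smad7 also had most of the peaks outside a gene body and its flanks. There were 11, 10 and 11 of them around Smad7, a mean of 10.7 ± 0.577 (SD, n = 3). Smad6 had 4, 4 and 3, Smad3 had 3, 2 and 1, Smad1 had 1 in each replicate, and Smad2 had 1 in replicate 1 alone. Smad5, Smad9 and Smad4 had 0 in each replicate. That 0 does not mean that no peak lay nearby. Peaks within 100 kb of Smad5, of Smad9 and, in replicate 1, of Smad4 were nearest to the start of another gene. A peak 86.4, 86.6 and 88.2 kb from Smad5 and nearest to the start of Tgfbi was at percentile 97.8, 97.4 and 95.9. Of those of Smad7, 8, 7 and 8 lay within the bodies of the neighbouring genes Dym, upstream, or Ctif, downstream, so that their assignment rests on the nearest start site alone. The peak in Ctif with its maximum 95.4, 95.4 and 94.6 kb from the Smad7 start was at percentile 94.4, 93.7 and 92.3. At the limit of 100 kb, the Smad1 peak 96.5 kb away in replicate 1 was just inside. Peaks nearest to the Smad7 start but 100.087, 100.145 and 101.848 kb from its body were just outside, at percentile 98.9, 98.8 and 99.4. At the limit set by signal, the weakest Smad peak was at Smad1 in replicate 1, with a total signal of 14274.

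Smad3, which carries TGF-beta and activin signals, is the neighbour of Smad6 on chromosome 9, with 195 kb and no protein-coding gene between their bodies. It lies on the minus strand at chr9:63646767-63757994 (ENSMUSG00000032402.12), and is the longest of the Smad genes at 111 kb. Its longest peak measured 23.3, 32.1 and 17.2 kb, or 24.2 ± 7.49 kb (SD, n = 3), at percentile 99.7, 99.7 and 99.2 of total signal. The lengths of Smad3 overlapped those of Smad6 and Smad7 over the 3 lists, but within each list Smad3 was the shortest of these genes. This peak lay in intron 1, which is 89.5 kb long, and in replicate 2 reached into exon 1, and its maximum fell 11.6 kb from the start site within 7 bp across the replicates, in the Smad3 intron 1 window printed above. The merged region there, chr9:63725370-63757586, was 32.2 kb long and was called as 2, 1 and 3 peaks in replicates 1, 2 and 3. A further wide region, chr9:63649526-63669735, covered the 3′ part of the gene with a peak of 20.2 kb in replicate 1, of 19.7 kb in replicate 2, and a pair of 10025 and 4734 bp in replicate 3. In all 57.7, 60.1 and 43.0% of Smad3 with its flanks lay under peaks, or 53.6 ± 9.26% (SD, n = 3). The peaks of the Smad3 body held 0.166, 0.165 and 0.109% of all signal in the list, those of Smad7 0.153, 0.151 and 0.127% and those of Smad6 0.106, 0.126 and 0.0826%. Smad3 held the most in replicates 1 and 2, and Smad7 in replicate 3.

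**Figure D3:**
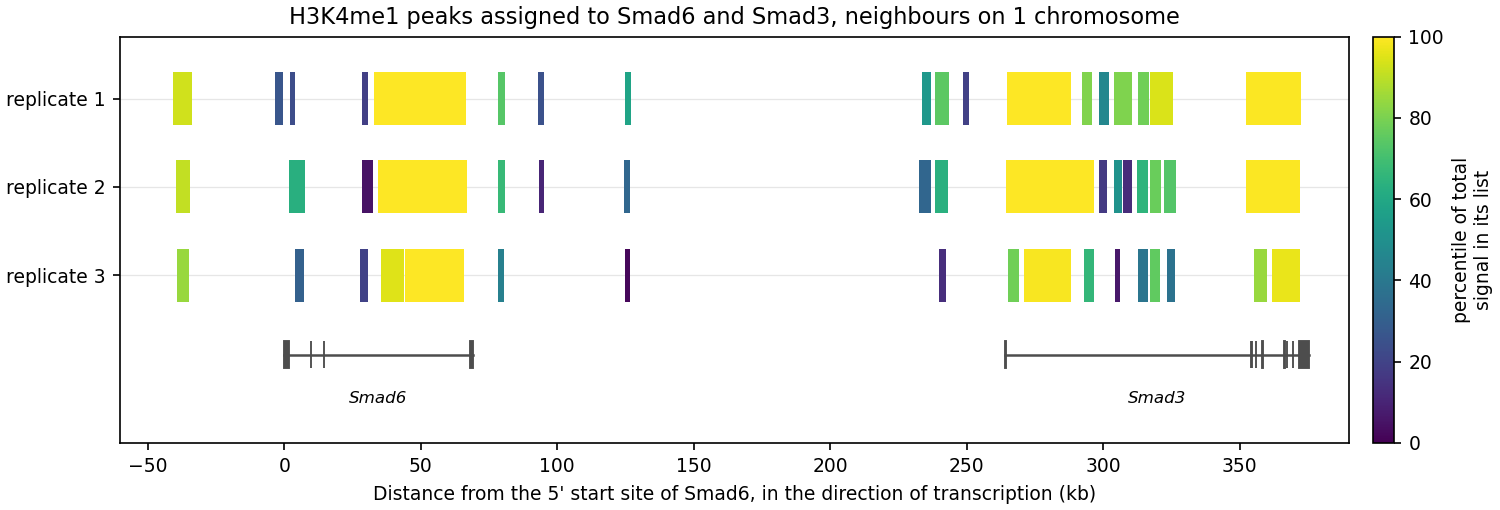
H3K4me1 peaks assigned to the neighbouring genes Smad6 and Smad3 in the 3 replicates, as boxes against the distance in kb from the Smad6 start site in the direction of transcription, coloured by the percentile of total signal in the list. Dark bars are exons. The widest blocks lie in the last intron of Smad6 and in the first intron and the 3′ part of Smad3, and fewer, shorter peaks lie between the genes.

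Among the receptor-regulated Smads of the BMP branch, Smad1 had the widest peaks. Smad1 lies on the minus strand at chr8:79338395-79399518, and its longest peak measured 9.08, 10.3 and 14.8 kb, or 11.4 ± 3.00 kb (SD, n = 3). The percentile of total signal was 89.2, 89.7 and 96.4. Replicate 3 had the longest of the Smad1 peaks, whereas at Smad6, Smad7 and Smad3 its longest peak was the shortest of the 3 replicates. The peak lay in intron 1, in the merged region chr8:79376870-79391815. Peaks covered 35.8, 22.2 and 34.2% of Smad1 with its flanks. The upstream peak whose window is printed above recurred in all 3 replicates, at percentile 41.2, 6.90 and 44.3.

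Smad5, at chr13:56703010-56742377 on the plus strand, had 2 peaks in each replicate. The longest measured 3.10, 3.82 and 3.79 kb, or 3.57 ± 0.410 kb (SD, n = 3). The stronger peak of the pair lay upstream, 3.6 kb from the gene in replicate 1, at percentile 68.1, 61.7 and 73.5. It overlapped the 5 kb flank without touching the gene body. The other peak lay within intron 1. Peaks covered 7.98, 10.7 and 10.5% of Smad5 with its flanks.

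Smad9, at chr3:54755582-54801257, had no assigned peak, and the nearest peak of any kind lay 76.3, 96.4 and 96.8 kb from its start. Smad2, at chr18:76241580-76310963, had none in its body or flanks, and the nearest peak lay 66.3, 129 and 155 kb from the start. The first of these, in replicate 1, was the only peak assigned to Smad2, at percentile 38.5. The absence of a peak here means that no block of signal was among those kept, not that the mark was absent.

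Smad4, the common mediator, at chr18:73639009-73703780, had no peak in replicate 1 and a weak peak in each of the other replicates. They measured 4.74 and 2.10 kb in replicates 2 and 3, at percentile 9.33 and 5.57. Both lay in intron 1, but did not overlap each other, so that Smad4 had no region shared between replicates. Repeats made up 85.3% of the peak of replicate 2.

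**Figure D4:**
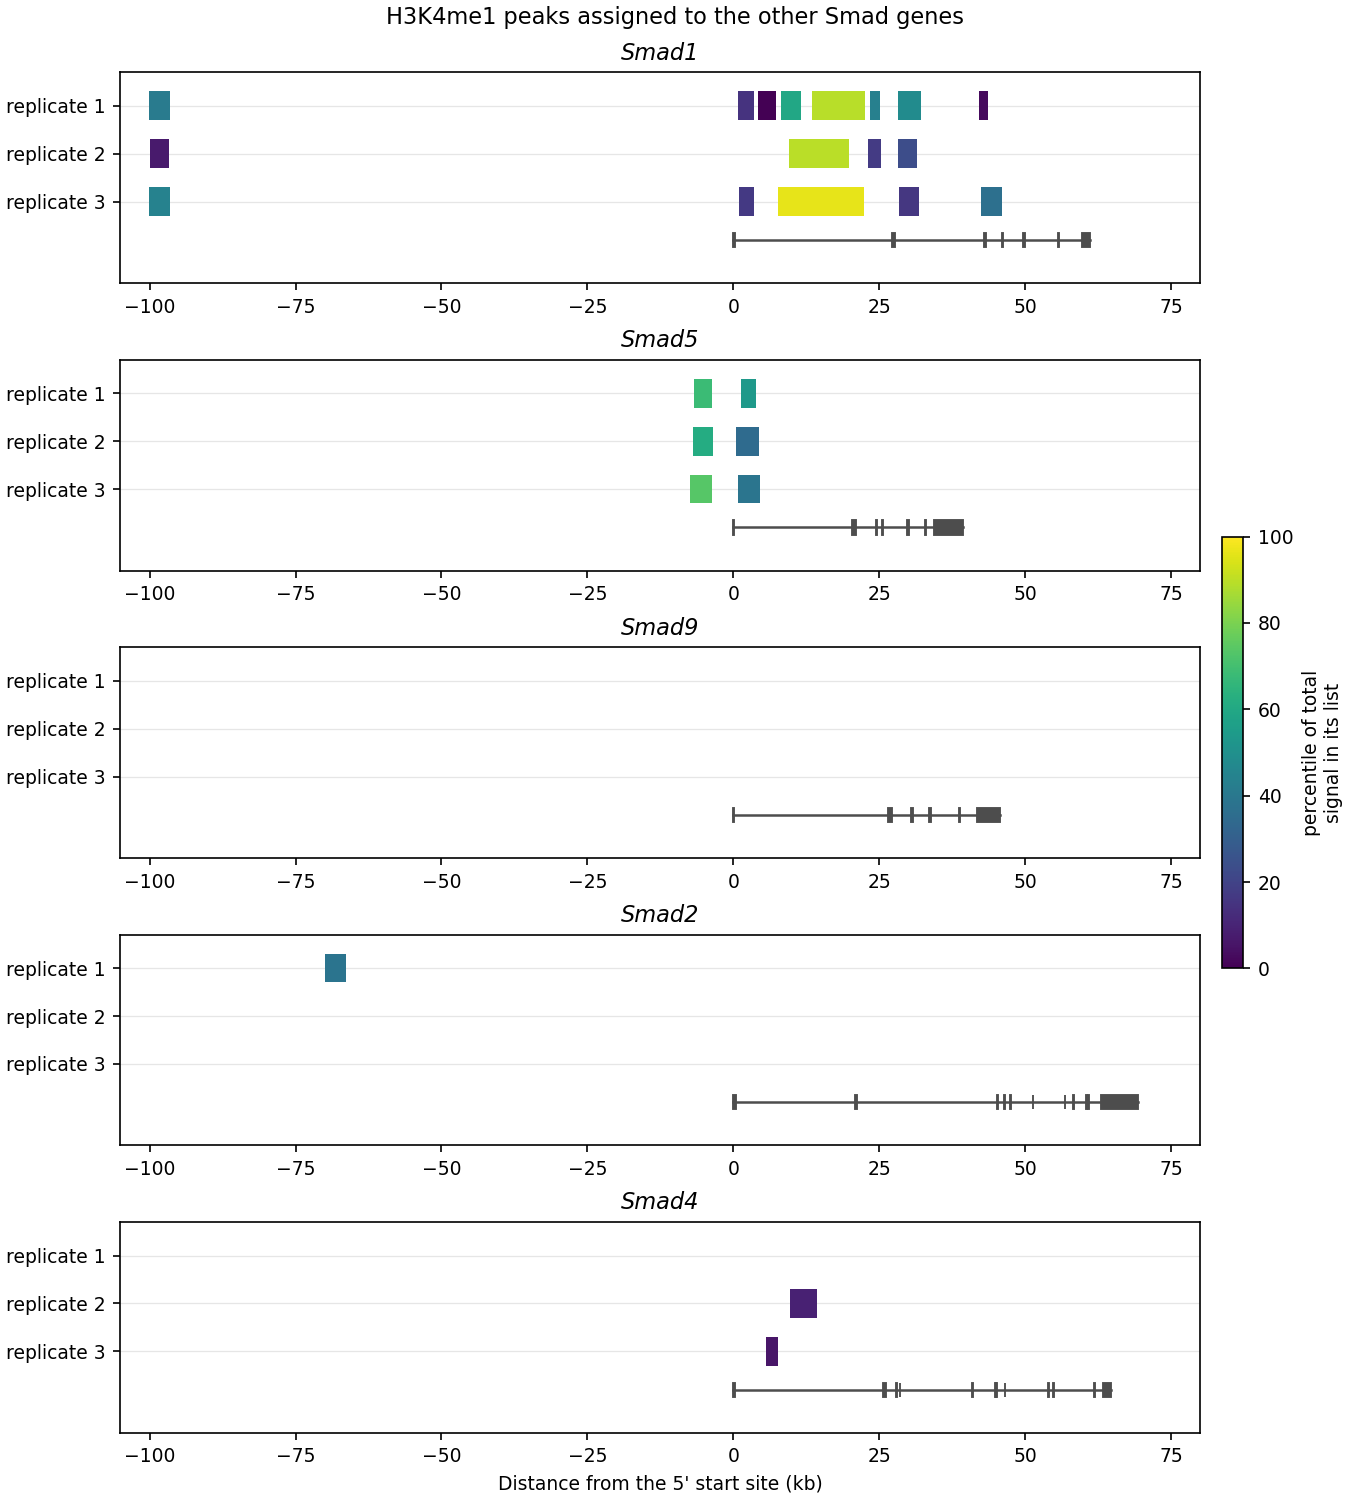
H3K4me1 peaks assigned to Smad1, Smad5, Smad9, Smad2 and Smad4 in the 3 replicates, as boxes against the distance in kb from the 5′ start site in the direction of transcription, coloured by the percentile of total signal in the list. Dark bars are exons. Smad1 has a block in intron 1 at percentile 89.2 to 96.4, Smad5 has a short peak on either side of its start, and the others have few or none.

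The inhibitory genes were then compared with the receptor-regulated genes as groups. The median longest peak of Smad6 and Smad7 exceeded that of Smad1, Smad2, Smad3, Smad5 and Smad9 by 26.1, 30.1 and 18.2 kb, or 24.8 ± 6.04 kb (SD, n = 3). For the highest percentile of total signal, the difference was 31.8, 38.2 and 26.4 points, or 32.1 ± 5.93 (SD, n = 3). For the share of the gene under peaks it was 57.6, 55.3 and 53.4 points, or 55.4 ± 2.11 (SD, n = 3). The median of the receptor-regulated genes was that of Smad5 in each case, and the group held both Smad2 and Smad9 without a peak and Smad3 with wide ones. Set against Smad3 alone, a comparison added after seeing the data, the differences within lists were smaller. They were 4.14 ± 2.11 kb, 0.379 ± 0.247 points of percentile and 11.5 ± 8.12 points of covered share (SD, n = 3). Smad6 and Smad7 each had a longer peak than Smad3 in every replicate, with mean lengths of 29.4, 27.3 and 24.2 kb. The SDs of these lengths over replicates, 6.68, 6.92 and 7.49 kb, are not the spread of that difference. All of these genes were measured in the same lists, and each was shortest in replicate 3. The covered share of Smad3 was above that of Smad6 in replicates 1 and 2 and below it in replicate 3. With 2 genes against 5, and genes that are no replicates of a class, no test was made.

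Among all 21755 protein-coding genes, the mean longest peak placed Smad6 at rank 22, Smad7 at rank 24, Smad3 at rank 34, Smad1 at rank 293 and Smad5 at rank 2683. By covered share, Smad7 moved to rank 19, and Smad3 and Smad6 to ranks 134 and 167. The 3374 genes with a peak in all replicates had a median of 4.89 kb for the longest peak and 13.2% for the covered share. Smad5 lay below both of these medians.

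By the distance between the log10 lengths over the 3 replicates, the genes most like Smad6 were Igsf3, at 0.0687, and the neighbours 2010111I01Rik and Fancc, which share a peak, at 0.0746. The genes most like Smad7 were Smad3, at 0.120, Cxxc5, at 0.143, and Smad6, at 0.146. These distances describe 3 values per gene and nothing of function or control.

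The 5′ start sites of the Smad genes lay outside the peaks. None of the 8 was under a peak in any replicate, while 5.31%, 6.5% and 2.42% of all protein-coding genes had theirs under one in replicates 1, 2 and 3. In at least 1 replicate the share was 8.07%, so that 0 of 8 is close to it. Of the genes with a peak in all replicates, 31.6% had the start covered in at least 1 replicate, and 0 of the 5 such Smad genes did. With only 5 genes, this is not read as a difference from that share. At Smad3 the distance from the start to the nearest peak was 0.871, 0.408 and 0.904 kb. Internal start sites of Smad3, 6.92 and 91.4 kb into the gene, were under a peak in all replicates, and a further one at 46.0 kb was in replicates 1 and 2. At Smad5 a start site 0.658 kb into the gene was under a peak in replicate 2. Of the 64 peaks in bodies and flanks, 56, or 87.5%, had their maximum in an intron, 6 upstream, 2 downstream and 0 in an exon. The 64 count the same places again in each list, with 19 of 23, 17 of 18 and 20 of 23 in an intron by replicate. The longest intron alone makes up 77.5% of the body of Smad6 and 80.5% of that of Smad3. The intron share of maxima over all genes was not measured.

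RefSeq promoter windows of GRCm38.p6 matched 5 of the 8 genes, and Smad2, Smad4 and Smad7 had no entry. The Smad6 promoter is shown because it was the only Smad promoter of 7 in the table to hold the SMAD palindrome, which is in capitals. It is read 5′ to 3′ on the minus strand, from 250 bases before the start to 10 bases after it, and the palindrome stands at the start.
Smad6 promoter, chr9:64022050-64022309: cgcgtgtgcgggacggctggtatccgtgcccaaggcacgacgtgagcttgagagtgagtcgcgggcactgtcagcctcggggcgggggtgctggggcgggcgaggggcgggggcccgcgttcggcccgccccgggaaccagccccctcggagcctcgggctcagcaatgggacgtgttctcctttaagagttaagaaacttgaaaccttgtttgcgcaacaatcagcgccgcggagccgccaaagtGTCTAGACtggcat
GTCTAGAC was found in 70 of the 32851 promoter windows of the table, or 0.213%. The observed over expected ratio of CpG was 0.952 in the Smad6 promoter, 0.753 in that of Smad3, 0.762 in that of Smad9, 1.06 in that of Smad1 and 0.926 to 1.08 in the 3 of Smad5, beside a median of 0.384. All 7 Smad promoters were thus above the median, whether the gene had wide, short or no peaks.

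Most Smad regions recurred between replicates. Merging the assigned peaks gave 41 regions, and 28 of them, or 68.3%, were found in every replicate, 7 in 2 and 6 in 1. Over all 19251 merged regions, 46.3% were found in every replicate and 30.1% in 1. These shares are not matched for length or signal, on which the Smad genes were selected. Of the regions of Smad7, 11 of 12 were in all replicates, of Smad6 6 of 8, of Smad3 6 of 9, of Smad1 3 of 7 and of Smad5 2 of 2. Neither Smad4, with 2 regions, nor Smad2, with 1, had any.

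Signal in the Smad regions differed between replicates 2 and 3 along with their base composition. Relative to all signal in the list, 23 of the 28 shared regions had a smaller share in replicate 3 than in replicate 2, with a median log2 ratio of -0.44 and a range from -1.41 to 0.71. Over all shared regions the median was 0.06. The GC content of the Smad regions was 51.0% at the median, from 45.1 to 54.4%, beside 47.3% over 8916 shared regions. In the tenth of regions lowest in GC the median log2 ratio was 0.92, and in the tenth highest -0.90. Against regions of like GC content, 11 Smad regions were above and 17 below the median, with a median log2 difference of -0.06. For replicate 1 over replicate 2, the median log2 ratio was -0.02 in the Smad regions and -0.13 over all shared regions. The peaks of Smad6, Smad7 and Smad3 were shortest in replicate 3, and the part of base composition in this was not tested.

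**Figure D5:**
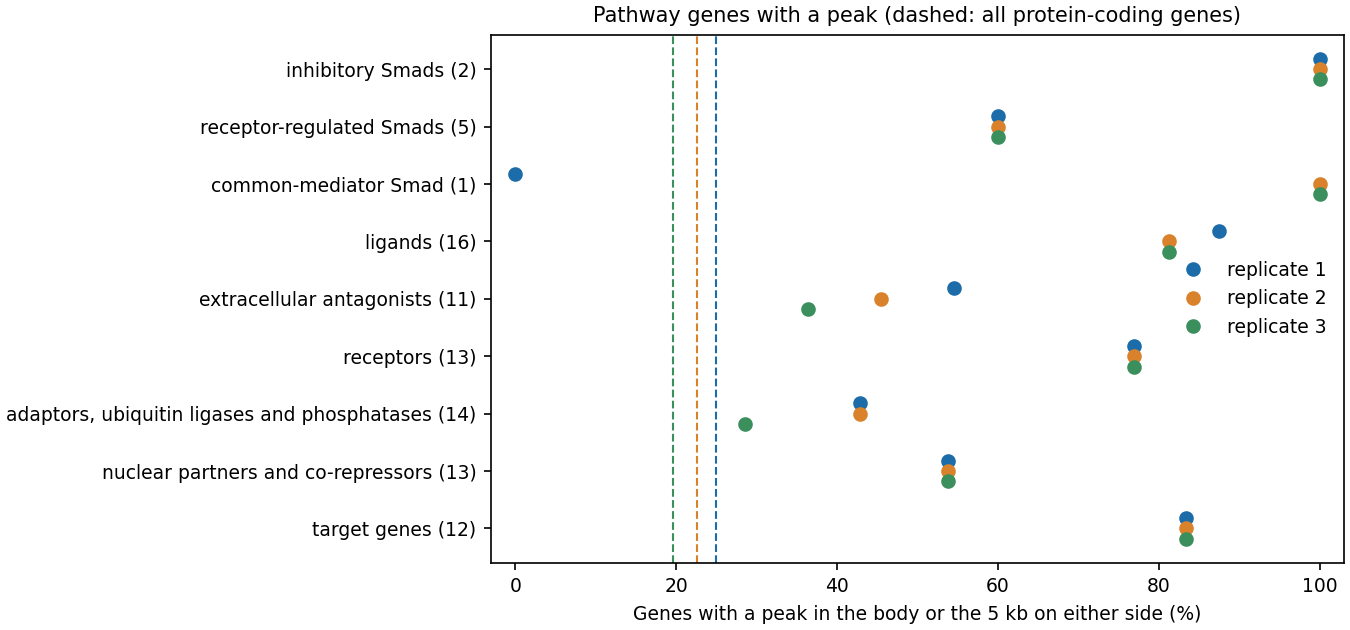
The percent of genes with an H3K4me1 peak in the body or the 5 kb on either side, for the Smad classes and for lists of other pathway genes, with the number of genes in brackets. Points are the 3 replicates and dashed lines the shares of all protein-coding genes, 24.9%, 22.6% and 19.6%. Ligands, receptors and target genes lie furthest to the right of the lines among the lists, and adaptors, ubiquitin ligases and phosphatases nearest to them.

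The other genes of the pathway were counted from 6 lists with 79 genes in all, of which 43, or 54.4%, had a peak in all replicates and 22 had none. Over all protein-coding genes, 15.5% had a peak in all replicates and 71.2% had none. None of the 79 had a peak of at least 15 kb in all replicates, beside 0.409% of all genes, so that 0 of 79 is close to that share. Pmepa1 and Bmp7 reached 15 kb in replicates 1 and 2, and measured 14.6 and 12.05 kb in replicate 3. Of 16 ligands, 12 had a peak in all replicates, beside the 15.5% of all genes given above. Among them Bmp7, a BMP ligand, had its strongest peak at percentile 99.4 ± 0.0857, Bmp4 at 89.2 ± 4.19 and Tgfb1 at 81.6 ± 13.2 (SD, n = 3), and Inhbb and Nodal had no peak. Of 13 receptors, 8 had a peak in all replicates, with Tgfbr3, a co-receptor, at 98.3 ± 1.37, Acvrl1 at 89.7 ± 8.36 and Tgfbr2 at 88.8 ± 1.26, and Acvr1c had none. The longest peak of a ligand or receptor gene in these lists was 21.6 kb, at Tgfbr3 in replicate 3.

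Extracellular antagonists bind ligands outside the cell, and of 11 such genes 4 had a peak in all replicates while 5 had none, Chrd and Chrdl1 among them. Nbl1 stood at percentile 80.3 ± 12.4, Sostdc1 at 77.9 ± 11.1 and Grem1 at 62.7 ± 3.21 (SD, n = 3). Of 14 adaptors, ubiquitin ligases and phosphatases, 4 had a peak in all replicates and 8 had none, among them Smurf2, a ubiquitin ligase that works with Smad7, Rnf111 and Trim33. Wwp2 stood highest at 86.2 ± 2.49, before Rnf165 at 83.7 ± 10.6 and Ppm1a at 56.3 ± 9.30. These 2 lists had the smallest shares with a peak in all replicates, 36.4% of the antagonists and 28.6% of the other list. Both were above the 15.5% of all genes, of which 71.2% had no peak.

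Of 13 nuclear partners and co-repressors, 6 had a peak in all replicates and 5 had none, beside 15.5% and 71.2% of all genes. Crebbp, Ep300 and Foxh1 were among those with none. Zfp423, a partner of the BMP Smads, stood at percentile 99.1 ± 0.118, Ski, a co-repressor, at 97.5 ± 0.665 and Runx3 at 95.2 ± 5.73 (SD, n = 3). Of 12 target genes, 9 had a peak in all replicates, beside the same 15.5% of all genes. Pmepa1, itself an inhibitor of TGF-beta signals, was at 99.3 ± 0.742, Atoh8 at 99.2 ± 0.315 and Id3 at 94.6 ± 2.05. The longest peaks of Pmepa1 measured 24.8, 30.2 and 14.6 kb, longer than those of Smad7 and Smad3 in replicate 1 and shorter than those of Smad6, Smad7 and Smad3 in replicates 2 and 3.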

How the data were processed

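H3K4me1 CUT&Tag peak lists of 3 whisker pads were analysed. Per the methods of the study, the authors ran SEACR (stringent) on each replicate by itself and with no IgG, at several top fractions, and the deposited lists are named as those of the top 1%. The deposited lists give the total signal and the maximum signal of each peak as whole-number pileup, not scaled to depth. The submitters' processing notes name Bowtie2 2.3, SAMtools 0.1.19, bedtools, SEACR 1.3 and the build mm10, and the treatment of duplicates is not given in the sources used here.

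Coordinates are 1-based on GRCm38, and 0 peaks ended beyond a chromosome. Percentiles are of total signal within a list, and nearest starts were taken over 54050 protein-coding start sites. Peaks of the lists were merged where they overlapped by at least 1 bp. Python 3.11.15, numpy 2.4.6, pysam 0.24.0 and matplotlib 3.10.9 were used, and the scripts were tested on simulated data. The members and gene lists were chosen with earlier results of these data known. Genes named besides the Smads were, per list, the 3 with the highest mean top percentile among those with a peak in all replicates and up to 3 without any, in alphabetical order, and the 3 closest in length pattern to Smad6 and Smad7. Some genes that this rule names are not reported here. The lengths of Pmepa1 and Bmp7 were added after their values were seen. Alternatives covered flank, reach, peak strength, joining, signal measure, group make-up and each replicate left out.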

Additional observations from a re-analysis of the deposited data

How the results depend on the processing

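Of 62 values under alternatives, 46 moved by less than the spread between replicates, or for counts by less than 1.5 times, 16 moved by more and 0 changed sign. The percentile difference of 32.1 points was 57.6 without a flank, 63.5 with Smad4 counted as receptor-regulated, 48.1 from group means and 0.379 against Smad3 alone, which was chosen after seeing the data. The length difference of 24.8 kb was 4.14 kb against Smad3 alone. The difference in covered share of 55.4 points was 61.6 without a flank, 37.8 with a flank of 20 kb, 51.4 with the strongest 10000 peaks, 58.7 with Smad4, 40.7 for Smad6 alone, 70.1 for Smad7 alone, 46.3 from group means and 11.5 against Smad3 alone. Distal peaks, a mean of 17.7 per replicate, were 8.67 with a reach of 50 kb and 10.7 in the stronger 50% of each list, and the 28 regions in all replicates were 13 in that 50%. Fewer peaks are counted there by construction, and the Smad5 peak that sets the median percentile overlaps only the flank. With Smad4 added, the median lies midway between Smad4 and Smad5. Smad6 alone and Smad7 alone are each set against Smad5, and group means also take in Smad3 and the genes without a peak. Elsewhere the cause was not tested. Leaving out each replicate gave 5 to 6 genes with a peak, 22.1 to 28.1 kb, 29.1 to 35.0 points of percentile, 54.3 to 56.4 points of covered share, 16.5 to 18.5 distal peaks and 29 to 32 regions. No paired analysis was possible because the only samples sharing replicate numbers, those of IgG, were not analysed here. With no IgG, signal present without the H3K4me1 antibody was not measured, and a gene without a peak is only one below the share of blocks that was kept.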
